A study of Mus musculus with 80 samples.

Results

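H3K27ac, the acetylated form of lysine 27 of histone H3, was mapped by ChIP-seq in 1 library of Mll2 knockout (KO) and 1 library of wild type (WT) mouse embryonic stem cells. All peaks of both deposited lists were taken, 22944 in the KO and 29297 in WT, which makes 52241 of the 944830 peaks in the 38 ChIP and ATAC peak lists read here. Each list was divided by whether a peak overlapped an H3K4me3 peak of WT cells (experiment 1) by at least 1 bp. Overlap with H3K4me3 was the only measure used to divide the peaks, and no H3K27ac value was used to choose them.

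H3K27ac is written by the acetyltransferases p300 and CBP and marks active promoters and enhancers. Promoters carry it together with H3K4me3, the trimethyl mark that MLL2 (encoded by Kmt2b) and related enzymes place, whereas distal enhancers mostly carry it without H3K4me3. The same lysine can instead be trimethylated by Polycomb repressive complex 2, so that acetylation and H3K27me3 exclude each other on 1 histone tail. In embryonic stem cells many developmental promoters are bivalent, holding H3K4me3 and H3K27me3 at once.

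KO cells were Mll2F/F:CreERT2/+ embryonic stem cells of C57Bl/6 origin treated with 4-hydroxytamoxifen for 96 h, and WT cells were the same line given carrier. Both therefore carried the floxed alleles and the inducible Cre, and drug treatment and deletion came together. They grew without feeders on gelatin in serum and LIF. A V6.5 line with catalytically dead (CD) MLL2 (Y2602A) and its own WT line, kept on irradiated fibroblast feeders and pre-plated before use to take the feeders away, gave further H3K4me3 lists. H3K27ac, MLL2, CTCF, H3K36me3 and both polymerase targets had 1 library per genotype, H3K4me3, H3K27me3, Suz12 and Ring1b had 1 library per genotype in each of 2 experiments, and ATAC-seq had 3 libraries per genotype. The labels do not say whether these came from separate cultures.

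The MLL2 lists checked the genotypes, with 264 peaks in the KO and 11084 in WT. Kmt2b transcript did not, with 9.46 and 9.49 FPKM in the KO RNA libraries against 9.44 and 11.8 FPKM in the WT ones. A level for the whole gene does not set reads of the deleted part apart, so it cannot check the deletion. Why the levels overlapped was not tested. Stem cell markers were present in both genotypes: Pou5f1, the central pluripotency factor, had 1100 and 1220 FPKM in KO cells and 1440 and 1150 FPKM in WT cells, and the 8 markers summed to 7560 and 7250 FPKM in KO and 11700 and 8060 FPKM in WT. Of the 8 stem cell markers limma called 0 in RNA, and 2 (Sox2 and Nanog, both lower in KO) had an unadjusted p under 0.05. Of all 11318 genes tested in RNA, 1753 had an unadjusted p that low. The 5 fibroblast markers summed to 3.86 and 4.3 FPKM in KO and 2.81 and 2.6 FPKM in WT. Most of that was Thy1, with 3.44 and 4.05 FPKM in KO and 2.58 and 2.48 FPKM in WT (limma adjusted p = 0.255). Postn was listed at 0 in all 4 RNA libraries and the 3 collagen genes stood at 0.416 FPKM or less, with Col1a1 higher in both KO libraries (0.416 and 0.206 FPKM in KO, 0.172 and 0.0989 FPKM in WT). The 3 endoderm markers summed to 1.68 and 1.92 FPKM in KO and 1.27 and 1.29 FPKM in WT, and the sums of the 3 trophoblast markers overlapped between genotypes. In PRO-seq, which maps engaged polymerase, the 8 stem cell markers summed to 451 and 518 FPKM in KO and 616 and 650 FPKM in WT. There Nanog, Klf4 and Sox2 were lower in KO with unadjusted limma p of 0.00208, 0.0135 and 0.0348. None of the 8 passed the adjusted threshold of 0.05. Of all 14535 genes tested in PRO-seq, 2491 had an unadjusted p under 0.05. The part of these differences in the peak lists was not tested. Read depth is not known for any peak list. Scores are the peak caller's own, from 50 upwards, and 545 KO and 1124 WT peaks scored at least 3100, where many values are tied.

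The KO list was shorter, and its missing peaks were mostly weak ones. It covered 74.9 Mb, against 79.2 Mb in WT, and 61.6 Mb lay in both, which is 82.3% of the KO and 77.8% of the WT bases. The median peak was 2275 bp wide in the KO and 1895 bp in WT, and the median score was 166 in the KO and 190 in WT. The share of peaks on WT H3K4me3 was nearly the same, 62.2% of KO peaks (14262) and 61.7% of WT peaks (18066). With 1 library per genotype no difference between the lists could be tested, and every interval below is a 95% interval for counting error alone.

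Of the KO peaks, 3153 (13.7%) overlapped no WT peak, and of the WT peaks, 8550 (29.2%) overlapped no KO peak. These are called KO-alone and lost, and the other 20747 WT peaks kept. KO-alone peaks were 4.92% of KO peaks on H3K4me3 (702 of 14262, interval 4.58 to 5.29%) and 28.2% of KO peaks off it (2451 of 8682, interval 27.3 to 29.2%). Lost peaks were 23.5% of WT peaks on H3K4me3 (4253 of 18066, interval 22.9 to 24.2%) and 38.3% of those off it (4297 of 11231, interval 37.4 to 39.2%). In these unmatched lists both shares were larger off H3K4me3, which supplied 77.7% of the KO-alone and 50.3% of the lost peaks, but at matched WT score the order for lost peaks turned, as given below.

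The lists differed in length, and the part of this in the counts was not tested. Cutting to equal numbers left the KO list whole, so it took away weak WT peaks and no partner of the others. When the WT list was cut to its 22944 highest-scoring peaks, 20.9% of KO peaks were alone and 19.6% of WT peaks were lost. On H3K4me3, 9.27% of KO peaks were then alone and 17.0% of WT peaks lost. Off H3K4me3 the order turned, with 39.9% of KO peaks alone against 25.3% of WT peaks lost. In lists of equal length, the KO list thus had more peaks off H3K4me3 (8682, against 7265 in WT). On H3K4me3 it had fewer (14262, against 15679 in WT). Only the WT list was cut, which raised its lowest score to 81.3, while KO scores still began at 50.01. Weak WT peaks lay more often off H3K4me3, so the cut itself raised the WT share on H3K4me3 from 61.7 to 68.3%. The shift between genotypes cannot be told apart from this trimming.

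**Figure D1:**
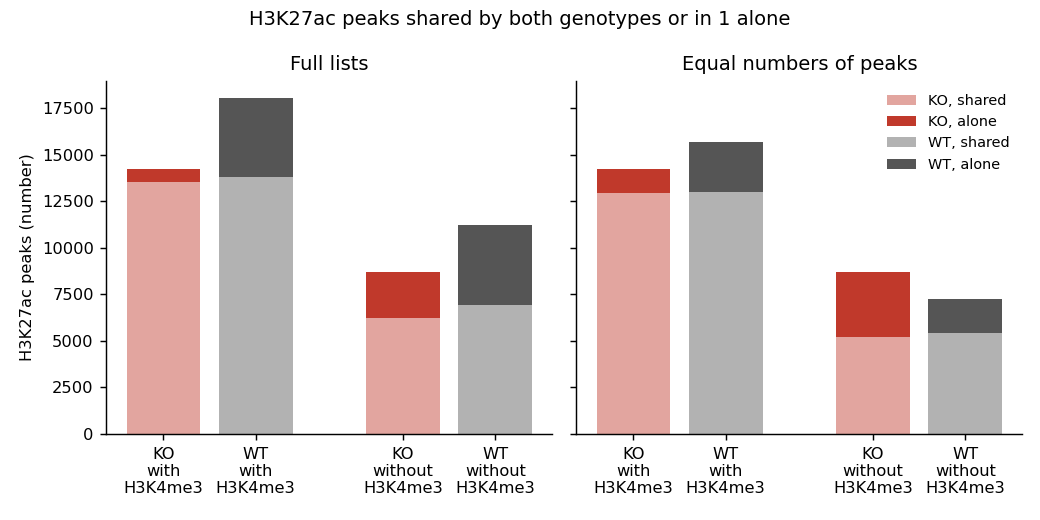
Numbers of H3K27ac peaks (vertical axis) in the KO and WT libraries with and without an overlapping WT H3K4me3 peak; pale bars are peaks shared by both genotypes and dark bars peaks of 1 genotype alone. In the full lists lost WT peaks (4253 and 4297) outnumber KO-alone peaks (702 and 2451) in both classes. In lists of equal length, made by cutting weak peaks from the WT list alone, KO-alone peaks off H3K4me3 (3468) outnumber lost ones (1835).

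How many peaks were lost followed peak strength closely, so the classes were also compared at matched WT score. In the lowest-scoring quintile of all WT peaks, 67.0% of peaks on H3K4me3 and 63.3% of peaks off it were lost. In the middle quintile the shares were 29.6% and 20.6%, and in the highest-scoring quintile 0.333% (18 of 5412) and 0% (0 of 448, which allows up to 0.67%). Peaks on H3K4me3 scored higher as a class (median 317, against 106 for peaks off it), and in each score quintile they were lost more often, with overlapping intervals in the highest quintile. Averaged over quintiles weighted by their peaks on H3K4me3, the difference in loss on minus off H3K4me3 was 4.39 points when matched by score and -1.62 points when matched by width.

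KO-alone peaks were likewise weak. In the lowest-scoring quintile of KO peaks, 20.1% of those on H3K4me3 and 51.3% of those off it were alone, and in the highest-scoring quintile 1 of 4090 and 3 of 499 were. Unlike lost peaks, KO-alone peaks remained more frequent off H3K4me3 in every quintile of score. Both lists were split by WT H3K4me3, however, and KO-alone peaks were chosen for lacking acetylation in the same WT cells. The contrast with lost peaks cannot be told apart from this choice, and no split by KO H3K4me3 was made. Some lay close to WT acetylation: 24.8% of KO-alone peaks had a WT peak within 1 kb, whereas 13.8% of lost peaks had a KO peak that near.

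Peaks bound by MLL2 in WT were compared with the other H3K4me3 peaks, because MLL2 is the enzyme removed. Of 6057 MLL2-bound H3K4me3 peaks 26.9% were lost (interval 25.8 to 28.0%), against 21.9% of 12009 unbound ones (interval 21.1 to 22.6%), a difference of 5.02 points (interval 3.69 to 6.37). MLL2-bound peaks scored higher in WT (median 391, against 286 for unbound peaks) but were narrower (1999 bp, against 2374 bp). At matched score the gap was wider. From the lowest quintile of score to quintile 4, 79.5, 67.8, 42.1 and 11.0% of bound peaks were lost, against 62.6, 48.2, 23.5 and 4.73% of unbound ones, and the unbound peaks stood close to peaks off H3K4me3, at 63.3, 44.8, 20.6 and 3.74%.

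At matched width the pattern was different. Narrow MLL2-bound peaks were lost more often, 73.8% against 60.9% of unbound ones in the narrowest quintile, while in quintiles 3 and 4 bound peaks were lost less often, 22.2% against 26.3% and 5.49% against 9.83%. Averaged over the width quintiles, each weighted by its number of MLL2-bound peaks, the difference was 1.01 points, and over the score quintiles 9.28 points. Whether bound peaks were lost more often thus depended on which measure of strength was matched.

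**Figure D2:**
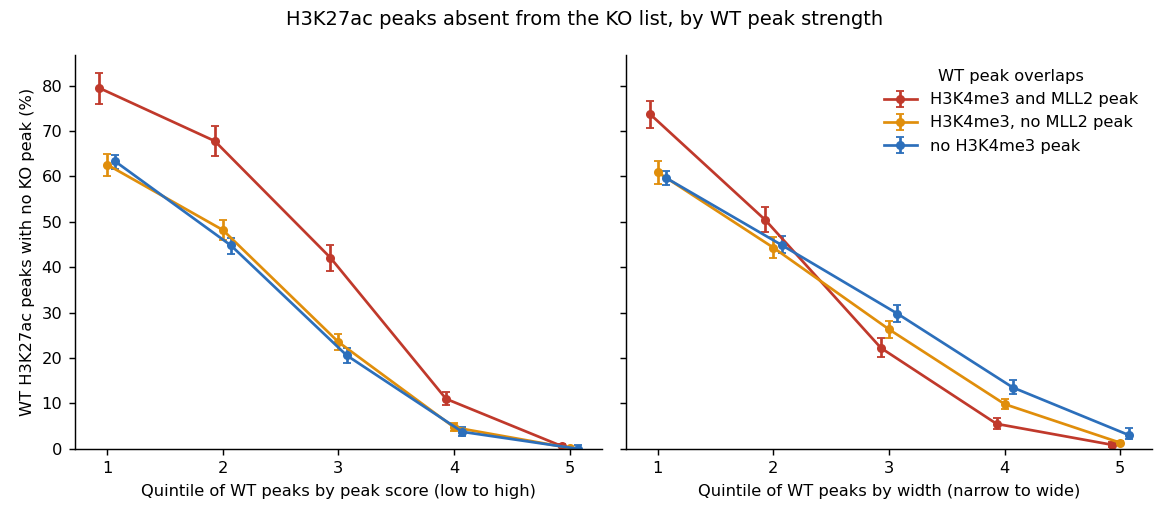
Percentage of WT H3K27ac peaks with no KO peak (vertical axis) in quintiles of WT peaks by peak score, left, and by width, right, with 95% Wilson intervals for counting error. Peaks with H3K4me3 and MLL2 lie highest in score quintiles 1 to 4 (79.5, 67.8, 42.1 and 11.0%), but below the other classes in width quintiles 3 and 4 (22.2 and 5.49%).

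Ranks, which rest on the same scores, gave the same order of the classes as the score quintiles among peaks that were not lost. The classes started from different WT ranks, with medians of 6349 for MLL2-bound, 7787 for unbound and 14166 for peaks off H3K4me3. A shared peak of low WT rank has more room to rise than to fall, and the best-ranked overlapping KO peak was taken. The shifts were not matched for starting rank beyond the bands below. In the lists of equal length, where rank 1 is the highest score, shared MLL2-bound peaks ranked a median of 939 places lower in the KO than in WT (4299 peaks). Unbound H3K4me3 peaks ranked 263 places higher in the KO (a KO minus WT rank of -263, 8707 peaks), and peaks off H3K4me3 stood at -2342.5 places (5430 peaks). Among WT ranks 1 to 5000 the medians were 605, 11.5 and -452 places. There, 67.8% of MLL2-bound peaks were lower-ranked in the KO, against 50.3% of unbound peaks and 37.3% of peaks off H3K4me3. Among WT ranks above 5000 and up to 15000 the medians were 1924, -108 and -1267 places. Among WT ranks above 15000 all 3 were negative, at -1200, -3833.5 and -4843 places, and 41.1% of the 433 MLL2-bound peaks there were lower-ranked in the KO.

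Loss of acetylation coincided with loss of H3K4me3. Where the KO H3K4me3 list of experiment 1 had no peak, 48.7% of 1288 acetylated H3K4me3 peaks were lost (interval 46.0 to 51.4%), against 21.6% of 16778 where H3K4me3 was kept (interval 21.0 to 22.2%). In experiment 2 the shares were 45.1% of 1880 and 21.0% of 16186. Peaks that lost H3K4me3 in both experiments lost acetylation in 51.3% of 1116 cases, against 20.9% of the 16014 that kept it in both. Peaks that lost H3K4me3 in experiment 1 were weaker (median WT score 124, against 348 where it was kept). The order held in every quintile of score, but with smaller gaps, for example 62.3% against 52.5% in quintile 2 and 11.5% against 6.80% in quintile 4. It also held in every quintile of width.

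Only 22 of the 6057 acetylated MLL2-bound peaks were among those that lost H3K4me3 in experiment 1, and 15 of these lost acetylation. Nearly all of the 1628 acetylation losses at MLL2-bound peaks (1613) thus occurred where an H3K4me3 peak was still called in the KO. Whether H3K4me3 became weaker there cannot be read from overlap. Among unbound peaks, 48.3% of 1266 lost acetylation where H3K4me3 was lost and 18.7% of 10743 where it was kept.

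H3K27me3, the Polycomb mark on the same residue, appeared more often where acetylation was lost. Of 28174 WT H3K27ac peaks with no WT H3K27me3 peak in experiment 1, 1954 (6.94%) had one in the KO, and in experiment 2, 260 of 29123 (0.893%). The KO H3K27me3 list was much longer than the WT one in experiment 1 (31018 against 19819 peaks) and of similar length in experiment 2 (8263 against 8080), and the shares differed between experiments. Within experiment 1, 10.5% of lost and 5.51% of kept peaks had gained it, and within experiment 2, 1.82% of lost and 0.513% of kept.

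The gain was most frequent at MLL2-bound peaks. There, 42.6% of 1295 lost and 14.2% of 4023 kept peaks gained H3K27me3 in experiment 1, a difference of 28.4 points (interval 25.5 to 31.3). In experiment 2 the shares were 8.04% of 1579 lost and 1.72% of 4369 kept peaks. At unbound H3K4me3 peaks they were 9.35% lost and 5.01% kept in experiment 1, and 0.998% and 0.310% in experiment 2. Off H3K4me3 they were 1.4% and 1.1% in experiment 1, and 1 of 4293 lost against 2 of 6933 kept peaks in experiment 2. Among MLL2-bound peaks of like WT H3K27ac score the order stayed in quintiles 1 to 4 of both experiments, from 42.6% lost against 19.5% kept in the lowest to 45.3% against 15.0% in quintile 4 in experiment 1. In experiment 2 these quintiles ranged from 10.3% against 5.05% to 5.20% against 1.07%, with overlapping intervals in the lowest 3.

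**Figure D3:**
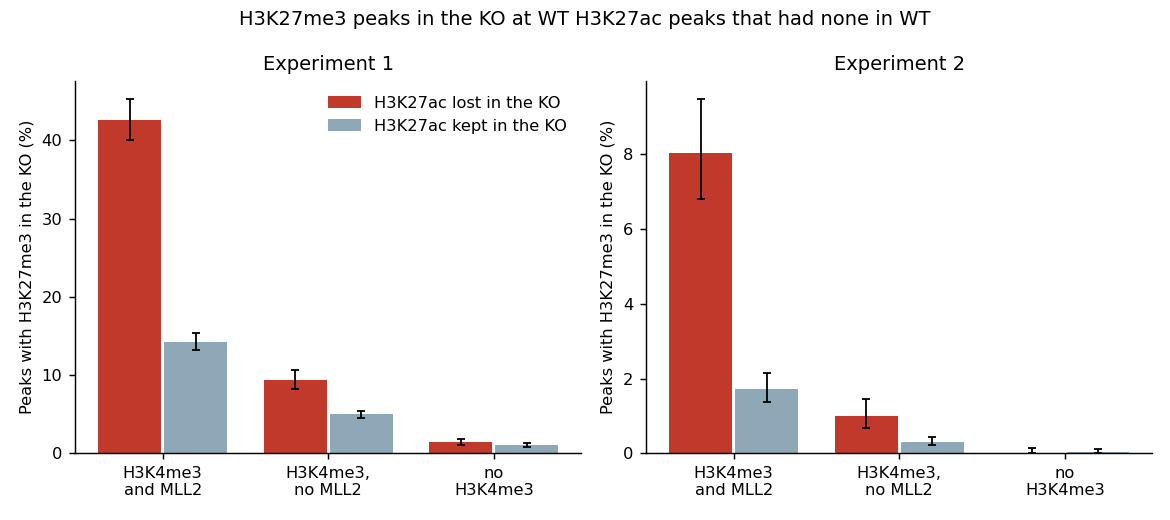
Percentage of WT H3K27ac peaks without WT H3K27me3 that overlap a KO H3K27me3 peak (vertical axes, different scales), for peaks lost and kept in the KO, with 95% Wilson intervals. At MLL2-bound H3K4me3 peaks the shares were 42.6% lost and 14.2% kept in experiment 1, and 8.04% lost and 1.72% kept in experiment 2.

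Peaks with both H3K4me3 and H3K27me3 in the WT lists of experiment 1 also lost acetylation more often. Of 1085 acetylated H3K4me3 peaks that overlapped WT H3K27me3, 41.0% were lost (interval 38.1 to 44.0%), against 22.4% of 16981 without H3K27me3 (interval 21.8 to 23.1%). Their median WT scores were 166 and 334, and the 2 classes were not matched for score. The WT H3K27me3 list of experiment 1 overlapped 10.5% of lost and 4.63% of kept H3K4me3 peaks. That of experiment 2 overlapped only 1.6% of lost and 0.731% of kept ones. Suz12, part of the complex that writes H3K27me3, overlapped 11.9% of lost H3K4me3 peaks in the KO list and 5.71% in the WT list of experiment 1, and 12.2% in KO and 8.21% in WT in experiment 2. At kept H3K4me3 peaks Suz12 stood at 3.77% in KO and 2.03% in WT, and at 3.77% and 2.83% in KO and WT of experiment 2. Ring1b, which ubiquitinates histone H2A as part of the other main Polycomb complex, was at 24.6% of lost peaks in KO and 21.7% in WT in experiment 1, and at 11.5% in KO and 1.83% in WT in experiment 2, where the KO list had 4640 peaks and the WT list 2242. At kept H3K4me3 peaks Ring1b stood at 11.7% in KO and 12.2% in WT in experiment 1, and at 3.66% in KO and 0.717% in WT in experiment 2.

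Peaks of RNA polymerase II were called more often in the KO, also where acetylation was lost. At lost H3K4me3 peaks the form phosphorylated at serine 5 had a peak at 79.3% in the KO and 59.7% in WT, and at kept ones at 91.5% in the KO and 73.4% in WT. RPB1, its largest subunit, was at 67.2% of lost H3K4me3 peaks in the KO and 57.9% in WT. Both KO polymerase lists were longer than their WT lists (42660 against 30067 peaks for serine 5, 41139 against 29048 for RPB1), so these increases cannot be told apart from list length. KO-alone peaks on H3K4me3 had the largest rise of the 6 sets of peaks (KO-alone, lost and kept, on and off H3K4me3), 41.2 points for serine 5 (79.5% in KO, 38.3% in WT) and 29.1 points for RPB1 (60.5% in KO, 31.5% in WT).

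Open chromatin, measured by ATAC-seq with 3 libraries per genotype, was the chromatin readout that allowed a test over libraries. In each library the share of lost peaks with an ATAC peak was set against the share of kept peaks. Over all WT H3K27ac peaks the lost minus kept difference was -18.74, -17.96 and -18.77 points in the KO libraries and -14.42, -16.48 and -15.69 points in the WT libraries. The KO libraries lay below all WT libraries. The means were -18.49 ± 0.46 points in KO and -15.53 ± 1.04 points in WT (SD, n = 3 each), and the KO minus WT difference was -2.96 points (2-sided exact permutation test, p = 0.1, the smallest that 3 against 3 libraries allow).

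Lost peaks were thus less open than kept peaks already in WT, and the gap was larger in all 3 KO libraries. On H3K4me3 the KO minus WT difference was -3.09 points and off it -2.86 points, each with p = 0.1 by the same exact test and with no overlap between genotypes. The shares themselves overlapped between genotypes. Off H3K4me3, lost peaks were open in 13.6, 15.5 and 17.4% of cases in KO and 13.5, 18.6 and 16.0% in WT, while kept peaks were open in 27.4, 28.3 and 31.4% in KO and 23.0, 30.6 and 26.5% in WT. MLL2-bound peaks were mostly open whether lost or kept: 83.3 to 89.4% of lost ones in KO libraries and 84.5 to 90% in WT libraries, and 89.1 to 93.5% of kept ones in KO libraries and 86.9 to 92.7% in WT libraries.

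**Figure D4:**
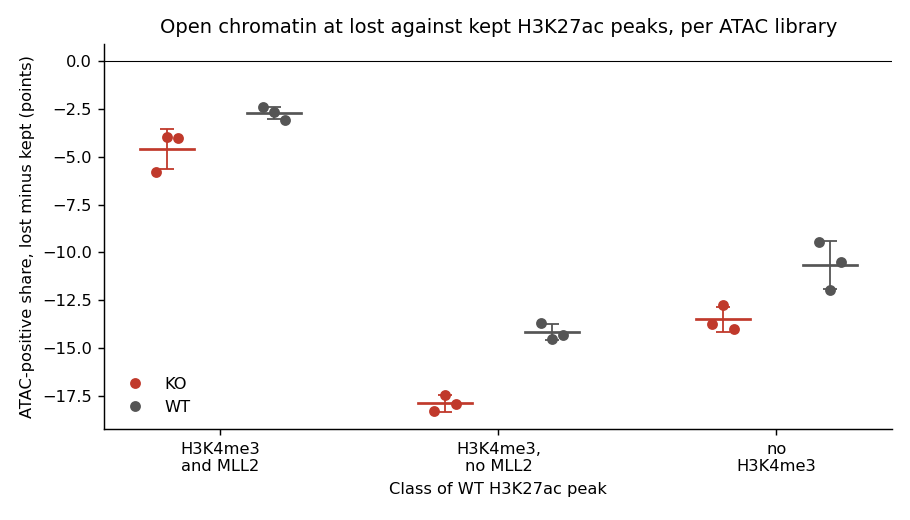
Difference in the share of peaks with an ATAC peak, lost minus kept H3K27ac peaks in percentage points (vertical axis), for 3 classes of WT peak; each point is 1 ATAC library, and lines and bars are the mean and SD of 3 libraries. KO libraries lie below WT libraries in each class, with mean KO minus WT differences of -1.87, -3.73 and -2.86 points.

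At acetylated peaks that lacked H3K4me3 in WT, the KO had H3K4me3 peaks. To keep the class apart from the measurement, peaks were chosen by the WT list of 1 experiment and read in both lists of the other. Of 11231 WT H3K27ac peaks without H3K4me3 in experiment 1, 16.0% had a KO H3K4me3 peak in experiment 2 (interval 15.4 to 16.7%) and 4.43% a WT one (interval 4.07 to 4.83%). With the experiments exchanged, 21.7% of 12263 peaks had H3K4me3 in KO, and 1530 of them in WT (interval 11.9 to 13.1%). Over all WT H3K27ac peaks the shares lay closer together, at 64% in KO and 61.7% in WT in experiment 1 and at 61.4% in KO and 58.1% in WT in experiment 2. The class was chosen for lacking WT H3K4me3 in the other experiment, which holds its WT shares down.

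The KO H3K4me3 lists were shorter than the WT lists (30513 against 43061 peaks in experiment 1, 28935 against 39920 in experiment 2). With each WT list cut to the number of KO peaks, the shares were 16.0% in KO and 0.748% in WT in experiment 2, and 21.7% in KO and 2.75% in WT in experiment 1. That setting shortens the WT list alone, so the WT share could not rise. The 2 experiments used different antibodies and each had 1 library per genotype. Peaks of H3K4me3 found in the KO alone lay on acetylation far more often than those found in WT alone: 53.3% of 4467 KO-alone and 9.15% of 15573 WT-alone H3K4me3 peaks overlapped WT H3K27ac in experiment 1, and 56.1% of 5241 and 9.87% of 14821 in experiment 2.

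Of acetylated peaks off H3K4me3, a larger share had a KO H3K4me3 peak where acetylation was strong and where it was kept. Few of them were strong, with 3687 in the lowest and 448 in the highest score quintile in experiment 2. Kept and lost peaks were not matched for score here. In both experiments the share was larger at higher WT H3K27ac score, in WT as well as in KO. In experiment 2 it was 10.3% in KO and 3.09% in WT in the lowest quintile, and 39.3% in KO and 7.59% in WT in the highest. In experiment 1 the WT share climbed more steeply, with 12.6% in KO and 6.44% in WT in the lowest quintile and 63.0% in KO and 39.7% in WT in the highest. In experiment 2 kept peaks had H3K4me3 in 21.0% of cases in KO and 5.02% in WT, lost peaks in 8.03% in KO and 3.49% in WT, and KO-alone acetylated peaks in 11.3% in KO and 2.77% in WT. In experiment 1 the shares were 27.9% in KO and 14.4% in WT for kept peaks, 11.2% in KO and 4.1% in WT for KO-alone ones, and only 11.3% in KO and 9.22% in WT for lost ones. A set of 1019 peaks lacked H3K4me3 in both WT lists and had it in both KO lists, and 83.6% of these kept acetylation (interval 81.2 to 85.8%), against 56.9% of 8635 peaks with H3K4me3 in none of the 4 lists. Their median WT score was 169, against 97.3.

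The same 1019 peaks differed in other readouts that did not choose them. They were also wider than the 8635 peaks (median 1974 bp, against 1434 bp), and a wider peak overlaps any list more readily. The shares below were not matched for width or score, and both KO polymerase lists were longer than the WT ones. Serine 5 polymerase was at 78.9% of the 1019 peaks in KO and 34.8% in WT. For the 8635 peaks without H3K4me3 it was at 41.7% in KO and 17.7% in WT. RPB1 was at 65.3% in KO and 39.0% in WT, against 26.5% in KO and 20.7% in WT. H3K36me3, deposited along transcribed gene bodies, was at 48.7% in KO and 51.9% in WT, against 32.6% in KO and 34.3% in WT. MLL2 had bound 0.785% of the 1019 peaks in WT. ATAC peaks were at 22.1, 23.2 and 26.7% of them in the KO libraries and at 16.3, 23.2 and 19.9% in the WT libraries, which overlap. At the 8635 peaks the shares were 21.7, 22.8 and 25.5% in KO libraries and 19.6, 26.0 and 22.5% in WT libraries. The 1019 minus the 8635 came to 0.33, 0.35 and 1.15 points in KO and -3.34, -2.84 and -2.6 points in WT, with no overlap. The KO minus WT difference was 3.53 points (2-sided exact permutation test, p = 0.1, the smallest possible).

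**Figure D5:**
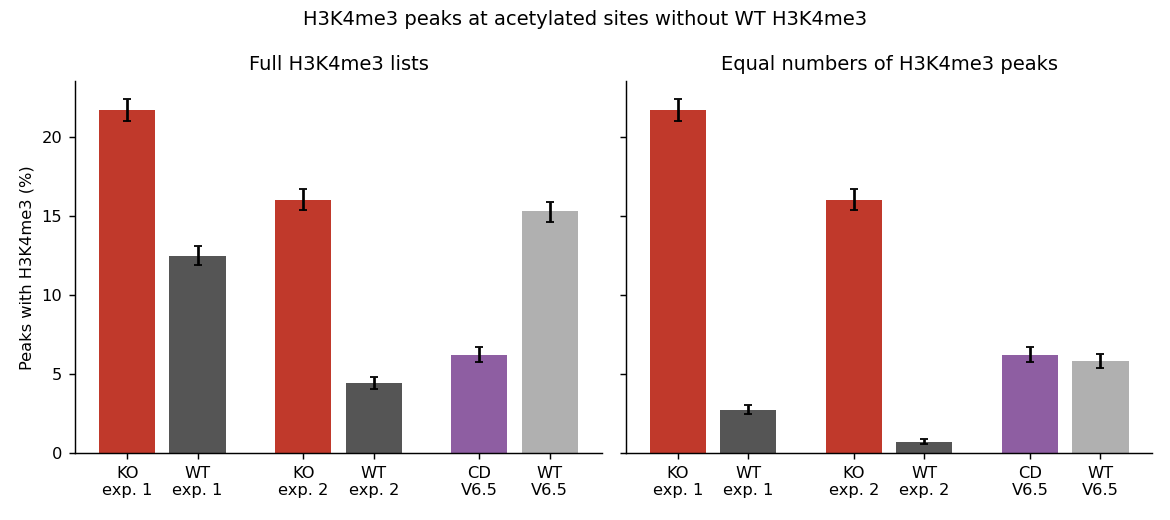
Percentage of WT H3K27ac peaks with an H3K4me3 peak (vertical axis), with 95% Wilson intervals, in full lists, left, and lists cut to equal numbers, right. For experiments 1 and 2 (exp.) the peaks lacked H3K4me3 in the WT list of the other experiment, and for V6.5 cells in WT of experiment 1. KO bars (21.7 and 16.0%) exceed WT bars in both experiments and both panels, whereas the CD and V6.5 WT bars (6.23 and 15.3% in full lists) come close to each other in lists of equal number (6.23 and 5.81%).

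In the V6.5 cells the catalytically dead line did not show this excess in the full lists. Of the 11231 peaks, 6.23% had H3K4me3 in the CD library and 15.3% in its WT library. The CD list had 25891 peaks and the WT list 41005, and with equal numbers the shares were 6.23% in CD and 5.81% in WT. Here too the cut shortened the WT list alone, so its share could not rise. For the 12263 peaks without H3K4me3 in experiment 2 they were 9.8% in CD and 6.79% in WT with equal numbers. The acetylated peaks came from the other line, and V6.5 acetylation was not analysed here.

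The highest-scoring peaks of each set are given as examples and do not stand for their classes. Most lost and KO-alone peaks were weak. In the highest-scoring quintiles, 18 of 5412 WT peaks on H3K4me3 were lost and 1 of 4090 KO peaks on it was alone. The examples are given by position in mm9 because no gene annotation of that build was used, so no gene is named for them. The strongest lost H3K4me3 peak was chr17:37180198-37194377, 14180 bp wide with a score of 3100, where the nearest KO H3K27ac peak lay 6159 bp away. H3K4me3 covered 11410 bp of it in KO and 9143 bp in WT (experiment 1), and RPB1 14029 bp in KO and 14180 bp in WT. Next came 2 neighbours, chr1:137086692-137098371 (score 2978.84) and chr1:137072731-137086644 (score 2625.26), and chr16:4585543-4590710 (score 2413.83). The first chr1 region lay 1043 bp from the nearest KO H3K27ac peak. All 4 kept H3K4me3, both polymerase signals and ATAC peaks in every KO library, and none had H3K27me3 in either genotype. Other called peaks differed at 3 of them: MLL2 covered 0 bp of the chr17 region in KO and 2227 bp in WT, H3K36me3 covered 0 bp of the chr16 region in KO and 1529 bp in WT, and CTCF covered 912 bp of the second chr1 region in KO and 0 bp in WT.

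Lost peaks off H3K4me3 were weaker at the top. The 4 strongest were chr16:43925206-43928078 (score 537.04), chrX:45415058-45418376 (533.8), chr6:83855369-83858987 (493.34) and chr2:153397476-153402282 (491.25). The first 2 were open in all 6 ATAC libraries, the KO ones included, and had their nearest KO H3K27ac peaks 34375 and 88186 bp away. The second also had 190 bp of H3K27me3 in the KO list of experiment 1 and none in WT. The other 2 had no ATAC peak in any library.

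KO-alone peaks on H3K4me3 were led by chr14:22288845-22306800, 17956 bp wide with a score of 3100, and its neighbour chr14:22306899-22322459 (15561 bp, score 405.99) was also among the 4. MLL2 covered 0 bp of the neighbour in KO and 2219 bp in WT. The neighbour also had a CTCF peak over 1098 bp in KO and none in WT. Both had H3K4me3, polymerase and ATAC peaks in both genotypes. Second in score stood chr6:90949192-90952600 (score 509.98), with serine 5 polymerase over 3345 bp in KO and none in WT, and RPB1 over 2451 bp in KO and none in WT. The last was chr10:60663731-60668089 (359.24), 197 bp from a WT peak.

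KO-alone peaks off H3K4me3 were led by chr14:48949218-48953915 (904.48), chr16:12780514-12784342 (814.02), chr14:66246889-66250437 (675.99) and chr3:83665680-83669841 (539.06), of which the first 3 lay 244, 216 and 702 bp from a WT peak. The first had H3K4me3 over 2581 and 2042 bp in KO of experiments 1 and 2 and none in WT, and the third over 3415 and 2831 bp in KO and none in WT. Both also had serine 5 and RPB1 peaks in KO and none in WT.

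The strongest shared peaks off H3K4me3 both carried called H3K4me3 peaks in the KO and none in WT, where absence in experiment 1 is the rule of the class. At chr11:63081645-63087197 KO acetylation covered 5541 of 5553 bp, and at chr13:97112186-97120277 all 8092 bp. H3K4me3 covered 2481 and 2084 bp of the first in KO of the 2 experiments and 0 bp in WT, and 4529 and 4300 bp of the second in KO and 0 bp in WT. They were taken by position from 11 peaks tied at a score of 3100. The strongest shared peaks on H3K4me3, chr8:125076757-125083946 and chr11:75432261-75439895, scored 3233.06 and 3230.05, and KO acetylation covered 7190 of 7190 and 7585 of 7635 bp.

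Acetylated peaks off H3K4me3 were also stitched into runs at gaps of up to 12500 bp, as is done to find large enhancer clusters. The 11231 peaks formed 7321 runs. Isolated peaks were lost in 44.1% of 5137 cases, peaks in runs of 2 to 3 in 34.0% of 4057 and peaks in runs of 4 or more in 32.1% of 2037, with median WT scores of 101, 111 and 111. The widest run, chr11:62139968-62230633, held 18 WT peaks over 90666 bp, of which 13 were kept, and KO peaks covered 71.1% of their bases. The second, chrX:148277987-148359789, kept 8 of 14 peaks and 50.6% of bases, and the third, chr8:74864702-74941307, kept 9 of 13 peaks and 67.4%.

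Loss was spread over the genome. On H3K4me3 the lost share ranged from 20.4% on chromosome 7 to 29.3% on chromosome 13, and off it from 33.0% on chromosome 18 to 44.1% on chromosome 19, over 20 chromosomes that include X. Compared with other targets, 70.8% of WT H3K27ac peaks were kept, against 63.8% and 62.9% of WT H3K4me3 peaks in the 2 experiments, 80.5% of H3K36me3 and 93.2% of CTCF peaks. With equal numbers the shares were 80.4% for H3K27ac, 77.3% and 74.3% for H3K4me3, 86.4% for H3K36me3 and 92.0% for CTCF.

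None of 35 genes linked to histone acetylation or to H3K27 passed the test in either RNA measure. The list held the H3K27 acetyltransferases, other acetyltransferases, class I deacetylases, members of deacetylase complexes, readers, H3K27 demethylases and genes of acetyl-CoA supply. It was tested in stem cell RNA-seq (day 0) and in PRO-seq, which maps engaged polymerase, with 2 libraries per genotype in each. By limma with Benjamini-Hochberg adjustment, 0 of 35 were called in RNA, against a background of 1.4% of 11318 genes higher and 1.93% lower in KO cells. In PRO-seq limma also called 0 of 35, with 0.667% of 14535 genes higher in KO cells and 0.832% lower. These backgrounds rest on single libraries. The 376 genes called in RNA became 0 without either WT library, and 428 and 526 without KO replicate 1 and 2, and the 218 called in PRO-seq became 31 and 4 without WT replicate 1 and 2 and 0 without either KO library. At an unadjusted p under 0.05 there were 1 of 35 in RNA, against 1753 of all 11318 genes tested. In PRO-seq there were 2 of 35, against 2491 of all 14535. The median log2 difference over the list was 0.045 in RNA and 0.044 in PRO-seq.

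The genes of the H3K27 acetyltransferases p300 and CBP had overlapping levels in the 2 genotypes. Ep300 (p300) averaged 12.3 ± 3.08 FPKM in KO and 12.6 ± 0.185 FPKM in WT (SD, n = 2 each), and Crebbp (CBP) 3.09 and 2.55 FPKM in KO and 2.59 and 2.79 FPKM in WT, with overlap in each. Among class I deacetylases, Hdac1 had 232 and 216 FPKM in KO and 263 and 217 FPKM in WT, and Hdac2 had 169 and 162 FPKM in KO and 137 and 143 FPKM in WT, a log2 difference of 0.24 ± 0.14 (SE, limma adjusted p = 0.521). Acly, which makes acetyl-CoA from citrate, had 135 and 146 FPKM in KO and 93.8 and 112 FPKM in WT, a log2 difference of 0.45 ± 0.15 (limma adjusted p = 0.192). Acss2, which makes it from acetate, had PRO-seq levels of 2.51 and 2.52 FPKM in KO and 1.68 and 1.67 FPKM in WT, a log2 difference of 0.39 ± 0.12 (limma adjusted p = 0.175). In PRO-seq Hdac1 had 17.1 and 17.6 FPKM in KO and 19.8 and 22.3 FPKM in WT (limma adjusted p = 0.281). The genotypes did not overlap for RNA Hdac2 and Acly or PRO-seq Acss2 and Hdac1, yet none of these differences passed the adjusted threshold of 0.05. Lack of overlap was common in the list, at 9 of 35 genes in RNA and 14 of 35 in PRO-seq. Its share over all genes was not worked out.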

How the data were processed

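The authors deposited 1 peak list per ChIP or ATAC library, in mm9 per the labels, aligned with Bowtie per the submitters' processing notes. The deposited score of each peak is the caller's own (MACS, by the peak names); caller version, thresholds and controls: not given in the sources used here. Intervals overlapped at 1 bp or more (Python 3.11.15, numpy 2.4.6). Scores were used only to rank or bin peaks within 1 list. Positions are 1-based. Shares have 95% Wilson intervals and differences of shares Newcombe intervals, for counting error only. Overlap code was tested on simulated intervals.

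For RNA (TopHat, DESeq2) and PRO-seq (cutadapt 1.14, Trimmomatic 0.33, Bowtie 1.1.2, DESeq2) the authors deposited FPKM tables, per the submitters' processing notes. log2(FPKM + 1) of genes averaging 1 FPKM or more was tested with limma 3.58.1 (trend, 2-sided, R 4.3.3) and adjusted over all genes. This scale understates the change of low genes; p-values measure the spread between 2 libraries per genotype, which may be technical. Reads behind these tables were not worked out here.

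Members, gene list and tests were chosen with earlier results of these data known. Named regions were the 4 highest-scoring lost, 4 KO-alone and 2 shared peaks of each class and the 3 widest runs; any gene of the list could be named.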

Additional observations from a re-analysis of the deposited data

Results flagged for a closer look

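In the full lists, H3K4me3 at acetylated peaks without WT H3K4me3 differed in opposite directions in the 2 cell lines. Cutting to equal numbers shortened the WT lists alone, so each WT share could only fall. It cannot decide whether the lines differ. In the conditional line the KO minus WT difference was 11.6 points in experiment 2 and 9.22 points in experiment 1, and in V6.5 cells the catalytically dead minus WT difference was -9.03 points. Each value is from 1 library per genotype, and the difference between the lines was not tested. The KO lists were shorter than their WT lists, as was the catalytically dead list, and with equal numbers of peaks the V6.5 difference was 0.418 points (interval -0.204 to 1.04), or 3.01 points (interval 2.32 to 3.7) with the class taken from experiment 2.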

How the results depend on the processing

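The share of WT peaks kept in the KO was 76.5% on H3K4me3 and 61.7% off it. With equal numbers of peaks it was 83.0 and 74.7%, in the top-scoring 50% of each list 73.7 and 66.4%, with 50% of the peak covered 74.9 and 58.9%, and with a partner within 1 kb 78.6 and 68.7%. KO-alone shares (4.92 and 28.2%) were 9.27 and 39.9% with equal numbers, 7.09 and 33.8% with 50% covered and 3.77 and 21.1% within 1 kb. On H3K4me3 the top-scoring 50% gave 5.78%. Off H3K4me3, the H3K4me3 list of experiment 2 gave 62.7% kept and 26.2% alone. In every one of these settings more peaks were kept on H3K4me3 than off it.

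Loss at MLL2-bound minus unbound peaks (5.02 points) was 9.71 points in the top-scoring 50% and 7.46 points within 1 kb. Averaged within quintiles of WT H3K27ac score and width it was 9.28 and 1.01 points. Bins of WT H3K4me3 score gave 9.63 points but hardly matched strength. Of the 6057 MLL2-bound peaks, 5709 fell in 1 bin of tied or nearly tied scores at 3100 or more. Loss where H3K4me3 was lost minus kept (27.1 points) was 21.6 points with equal numbers, 30.3 points in the top-scoring 50% and 24.1 points with KO H3K4me3 of experiment 2. None of these settings matched score. Within each quintile of WT score the gap was smaller, for example 62.3% against 52.5% lost in quintile 2. H3K27me3 gain at lost minus kept peaks (4.95 points) was 7.89, 6.11 and 6.27 points with equal numbers, the top-scoring 50% and within 1 kb, and 1.3 points in experiment 2.

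Settings added after seeing the data gave these values. The loss on minus off H3K4me3 (-14.7 points) was -8.21 points with equal numbers, -1.62 points within width quintiles and turned to 4.39 points within score quintiles. The KO minus WT H3K4me3 difference off H3K4me3 (11.6 points) was 9.22 points with the experiments exchanged, 15.3 points with equal numbers, 7.51 points with 50% covered and 13.9 points at KO peaks. In V6.5 cells (-9.03 points) equal numbers gave 0.418 points, and 3.01 points when the class came from experiment 2. That cut shortened the WT list alone, and the cause was not tested.

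The ATAC difference ran from -3.44 to -2.41 points without 1 library and was -2.96 points (exact sign-flip p = 0.25, the smallest for 3 pairs) with a replicate block; same-numbered ATAC libraries did not deviate together (r of 0.05, -0.014 and 0.002). With a replicate block limma called 1 of 35 acetylation genes in RNA (Acly, adjusted p = 0.0282), when 2007 genes in all were called, and 0 in PRO-seq. Deviations of same-numbered libraries correlated at 0.566 in RNA and 0.355 in PRO-seq, but the labels tie no number to a shared culture. Of 20 named regions, 4 KO-alone ones had a WT peak within 1 kb and none of the 20 moved otherwise. Unknown peak depth and 1 library per genotype limit every share.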
